A study of Saccharomyces cerevisiae with 6 samples.

Results

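The 35 genes of sulfate assimilation and methionine metabolism in budding yeast (Saccharomyces cerevisiae) were followed on 6 expression arrays. A gene was included where the platform annotation gives its symbol to a probe set, and each of the 35 had 1 probe set, out of 5498 probe sets for 5449 S. cerevisiae genes. Both groups were the haploid strain W303-1A, of mating type a, with the alleles ura3-1, trp1-1, ade2-1, his3-11,15 and can1-100 and a double mutant leu2 allele, and no allele of the 35 genes is listed. Cells of the GAL-YRA1Δi group carried a pRS413 plasmid on which the galactose-inducible promoter drives YRA1 lacking its intron, and this group overexpresses the gene. Cells of the GAL-YRA1 group carried the same plasmid with the intron-containing gene, which the labels describe as not overexpressing YRA1. Both groups were grown in minimal medium with raffinose and then kept for 4 hours in 2% galactose, with 3 biological replicates of each group (labelled 1 to 3), so the comparison concerns a plasmid construct and both groups received the same sugar. The methionine content of the medium is not given in the sources used here. Total RNA was hybridised to 1-colour arrays, and the values below are log2 signals after RMA, on which a difference of 1 is a doubling.

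Yeast takes sulfate from the medium and activates it with ATP. The activated sulfate is reduced to sulfite and then to sulfide, and sulfide is joined to O-acetylhomoserine to give homocysteine. Homocysteine is methylated to methionine, methionine is turned into S-adenosylmethionine, the main methyl donor of the cell, and the transsulfuration enzymes interconvert homocysteine and cysteine. Most of these genes are switched on together by the activator Met4, which reaches DNA through Cbf1, Met28, Met31 and Met32 and is held in check by the ubiquitin ligase SCF-Met30 when sulfur amino acids are plentiful. Yra1 is an mRNA export adaptor whose intron serves to keep its own level low.

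YRA1 itself had log2 signals of 14.48, 14.62 and 14.50 in GAL-YRA1Δi cells and 13.35, 13.22 and 13.44 in GAL-YRA1 cells, higher in the group labelled as overexpressing. Its change was 1.20 (SE 0.08, limma adjusted p = 0.0102, and 0.000441 to 0.112 over 15 alternatives), a 2.30-fold higher signal, near the top of a scale whose highest value was 15.12. The galactose genes GAL1, GAL2, GAL7 and GAL10 lay between 14.44 and 14.77 on all arrays. Of the 5 markers of mating type a, STE2, MFA1, MFA2 and STE6 lay between 11.77 and 14.09. The fifth, BAR1, lay between 3.14 and 3.47 on every array, under the level of 4.70 below which 95% of the Schizosaccharomyces pombe probe sets lay, and so was not seen. The 4 markers of mating type alpha lay between 6.35 and 10.48. The replicate 2 arrays of both groups stood apart from the other 4: limma's array weights were 0.20 for GAL-YRA1Δi replicate 2 and 0.28 for GAL-YRA1 replicate 2, against 0.77 to 5.89 for the others.

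Little of the pathway differed between GAL-YRA1Δi and GAL-YRA1 cells. None of the 35 genes passed the study's threshold (limma adjusted p below 0.01 and at least 1.5-fold), which 0 of all 5498 probe sets (0.00%) passed, or the looser one (adjusted p below 0.05 and at least 1.5-fold), which 22 of all (0.400%) passed. The closest was MET3, which makes the first activated form of sulfate and had a 1.5-fold higher signal in GAL-YRA1Δi cells. At an unadjusted p below 0.05 in the same fit, 1 gene was higher (MET3) and 1 was lower (SAM3, a permease for S-adenosylmethionine), beside 9.79% of all probe sets higher and 6.31% lower. The median change of the 35 genes was 0.02 and that of all probe sets 0.01. Of the 35 changes, 19 were positive and 16 negative, beside 52.4% positive among all probe sets. They ran from -0.33 for STR3 to 0.58 for MET3. The median size of the change was 0.13 for the 35 genes and 0.11 for all probe sets. The 3 GAL-YRA1Δi arrays all lay above the 3 GAL-YRA1 arrays for MET3, MET10 and CYS3 (13.6% of all probe sets did) and all below for SAM3 (8.57% of all did). In RNA from whole cultures, a change in the share of cells that express a gene and a change in its RNA per cell cannot be told apart.

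Setting same-numbered arrays against each other gave more small differences. The labels do not state such a pairing, and arrays 1 and 3 of the groups correlated better when crossed. Values from the block and from single pairs, here and below, are therefore tentative. With replicate number as a block in the limma fit, 6 genes were higher at an unadjusted p below 0.05 (MET3, MET1, MUP3, MET4, MET31 and MET30), beside 14.7% of all probe sets. In that fit 3 were lower (SAM2, STR3 and SAM3), beside 10.8% of all. Only MET3 then had an adjusted p below 0.05 (0.0362), as did 143 of the 5498 probe sets. The change was positive in all 3 replicate pairs for 12 genes (27.3% of all probe sets) and negative in all 3 for 8 genes (23.3% of all). The median change over the 35 genes was 0.03 in pair 1, and -0.00 and -0.02 in pairs 2 and 3.

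**Figure D1:**
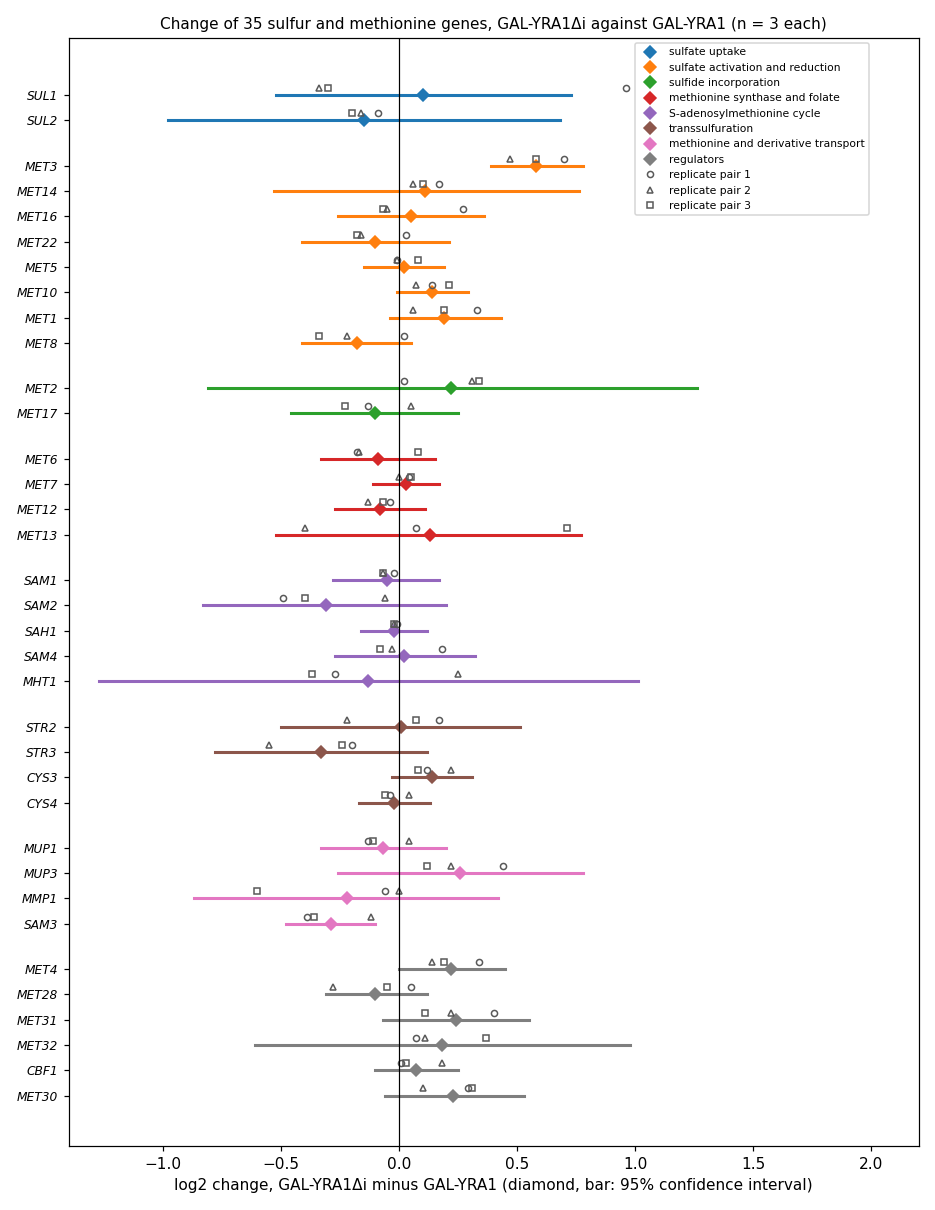
Log2 change, GAL-YRA1Δi minus GAL-YRA1, of the 35 sulfur and methionine genes by role. Diamonds are limma estimates with 95% confidence intervals as bars (n = 3 arrays each), and open symbols are the differences within replicate pairs 1, 2 and 3; only the bars of MET3 (0.39 to 0.78) and SAM3 (-0.48 to -0.10) leave out 0.

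Sulfate enters through the permeases Sul1 and Sul2. SUL2 signals were 8.40, 9.22 and 8.29 in GAL-YRA1Δi cells and 8.48, 9.38 and 8.48 in GAL-YRA1 cells. The groups overlapped, since replicate 2 was the high array in each, and the change was -0.15 (SE 0.34, adjusted p = 0.875). SUL1 averaged 8.66 ± 0.33 in GAL-YRA1Δi cells and 8.56 ± 0.42 in GAL-YRA1 cells (SD, n = 3 each). Its replicate pairs went opposite ways, with a change of 0.96 in pair 1 but -0.34 and -0.30 in pairs 2 and 3.

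Among the 8 genes of sulfate activation and reduction, the ATP sulfurylase gene MET3 stood out. Its signals were 10.39, 10.35 and 10.27 in GAL-YRA1Δi cells and 9.69, 9.88 and 9.69 in GAL-YRA1 cells. All 3 GAL-YRA1Δi arrays lay above every GAL-YRA1 array. The change was 0.58 (SE 0.08, 95% interval 0.39 to 0.78, unadjusted p = 0.000297, limma adjusted p = 0.0523), just under the fold threshold of 0.585 on the log2 scale. It was 0.70, 0.47 and 0.58 in replicate pairs 1, 2 and 3. Its adjusted p ranged from 0.00346 to 0.299 over 15 alternatives and was below 0.05 in 5 of them. Without the replicate 2 arrays of both groups, a choice made after seeing the data, the change was 0.64 (limma adjusted p = 0.0119). With those arrays left out, 32.8% of all probe sets had an unadjusted p below 0.05 in the limma fit. That fit holds only 2 arrays per group, and 231 of all 5498 probe sets passed the looser threshold in it. Here and below it is quoted for single genes only where their adjusted p in it was below 0.05. The share of all probe sets below that adjusted p alone was not counted, so these values are tentative.

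The enzymes downstream of MET3 did not follow it as a block. MET14, the APS kinase that acts on the product of Met3, had signals of 10.60, 11.27 and 10.65 in GAL-YRA1Δi cells and 10.43, 11.21 and 10.55 in GAL-YRA1 cells. Its change was 0.11 (SE 0.27, adjusted p = 0.878), with replicate 2 again the high array of each group. MET16, the PAPS reductase, differed by 0.05 (95% interval -0.26 to 0.36). MET22, the phosphatase that clears the by-product of that reduction, differed by -0.10 (-0.41 to 0.21). The subunit genes of sulfite reductase, MET5 and MET10, differed by 0.02 and 0.14. MET10 averaged 11.35 ± 0.05 in GAL-YRA1Δi cells and 11.21 ± 0.03 in GAL-YRA1 cells (SD, n = 3 each), with no overlap but an adjusted p of 0.330. Sulfite reductase needs siroheme, which Met1 and Met8 help to make, and their genes went opposite ways. MET1 differed by 0.19 (adjusted p = 0.401; unadjusted p = 0.0497 with the replicate block) and MET8 by -0.18 (adjusted p = 0.427). Of the 8 genes, 6 had a positive change, beside 52.4% of all probe sets, and the median of the 8 was 0.08.

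The next steps make the carbon acceptor and join sulfide to it. MET2, which acetylates homoserine, had signals of 9.05, 10.15 and 8.97 in GAL-YRA1Δi cells and 9.03, 9.84 and 8.62 in GAL-YRA1 cells. The replicate 2 arrays were the highest of both groups, and the change of 0.22 (SE 0.43, adjusted p = 0.854) lay well inside the spread between replicates. MET17, which forms homocysteine from O-acetylhomoserine and sulfide, had signals of 13.06, 13.50 and 13.04 in GAL-YRA1Δi cells and 13.19, 13.45 and 13.27 in GAL-YRA1 cells. Its groups overlapped, with a change of -0.10 (SE 0.15, adjusted p = 0.799).

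None of the 4 genes of methionine synthesis and folate supply had an unadjusted p below 0.05. MET12 and MET13 both encode methylenetetrahydrofolate reductases, which make the methyl donor for homocysteine. MET12 had signals of 11.66, 11.75 and 11.62 in GAL-YRA1Δi cells and 11.70, 11.87 and 11.69 in GAL-YRA1 cells, a change of -0.08 (SE 0.08, adjusted p = 0.706). MET13 differed by 0.13, but its pairs ran from -0.40 in pair 2 to 0.71 in pair 3. MET6, the methionine synthase, averaged 13.59 ± 0.09 in GAL-YRA1Δi cells and 13.68 ± 0.16 in GAL-YRA1 cells (SD, n = 3 each). MET7, which adds glutamates to folate, differed by 0.03 (95% interval -0.11 to 0.17), one of the narrowest intervals in the pathway.

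In the S-adenosylmethionine cycle, 4 of 5 changes were negative, beside 2619 of all 5498 probe sets, with a median of -0.05. SAM2, one of the S-adenosylmethionine synthetase genes, had signals of 13.12, 13.82 and 13.12 in GAL-YRA1Δi cells and 13.61, 13.88 and 13.52 in GAL-YRA1 cells. Replicates 1 and 3 of GAL-YRA1Δi lay below all GAL-YRA1 arrays, while replicate 2 lay among them. The change was -0.31 (SE 0.21, limma adjusted p = 0.566, and unadjusted p = 0.0257 with the replicate block). Without both replicate 2 arrays, a choice made after seeing the data, the change was -0.44 (limma adjusted p = 0.0206). SAM1, its close paralog, differed by -0.05 (95% interval -0.28 to 0.17). As background, near-identical copies can share hybridisation signal, and whether these probe sets do was not tested. SAH1, which clears S-adenosylhomocysteine after methyl transfer, had among the smallest changes, at -0.02 (-0.16 to 0.12), and averaged 14.35 ± 0.03 in GAL-YRA1Δi cells and 14.37 ± 0.03 in GAL-YRA1 cells (SD, n = 3 each).

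The homocysteine methyltransferase genes recycle S-adenosylmethionine (SAM4) and S-methylmethionine (MHT1) into methionine. MHT1 had signals of 9.33, 10.78 and 9.27 in GAL-YRA1Δi cells and 9.60, 10.53 and 9.64 in GAL-YRA1 cells. Replicate 2 stood far above the other arrays in each group, and the change was -0.13 (SE 0.47, limma adjusted p = 0.922). Without both replicate 2 arrays, a choice made after seeing the data, the MHT1 change was -0.32 (limma adjusted p = 0.0334). SAM4 differed by 0.02 (SE 0.12).

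Transsulfuration showed no shared direction, with 2 changes positive and 2 negative. CYS3, the cystathionine gamma-lyase that releases cysteine, had signals of 13.18, 13.12 and 13.14 in GAL-YRA1Δi cells and 13.06, 12.90 and 13.05 in GAL-YRA1 cells. Its groups did not overlap, but the change was small at 0.14 (SE 0.07, adjusted p = 0.399). STR3, the cystathionine beta-lyase of the reverse route, had the most negative change of the 35 genes. It averaged 10.55 ± 0.34 in GAL-YRA1Δi cells and 10.89 ± 0.17 in GAL-YRA1 cells (SD, n = 3 each), a change of -0.33 (SE 0.18, adjusted p = 0.453; unadjusted p = 0.0134 with the replicate block). STR2, which makes cystathionine from cysteine, differed by 0.01 (95% interval -0.50 to 0.51) and CYS4, the cystathionine beta-synthase, by -0.02 (-0.17 to 0.13).

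Of the 4 transport genes, SAM3 differed most clearly. Its signals were 11.20, 11.27 and 11.13 in GAL-YRA1Δi cells and 11.59, 11.39 and 11.50 in GAL-YRA1 cells. Every GAL-YRA1Δi array lay below every GAL-YRA1 array. The change was -0.29 (SE 0.08, 95% interval -0.48 to -0.10, unadjusted p = 0.0096, adjusted p = 0.159), with -0.39, -0.12 and -0.36 in replicate pairs 1, 2 and 3. Its limma adjusted p was 0.0315 without both replicate 2 arrays, a choice made after seeing the data. SAM3 lies next to SAM4 in the genome, and SAM4 differed by only 0.02. MMP1, the permease for S-methylmethionine and the neighbour of MHT1, averaged 10.87 ± 0.47 in GAL-YRA1Δi cells and 11.09 ± 0.30 in GAL-YRA1 cells (SD, n = 3 each). The methionine permease genes went opposite ways within wide intervals. MUP1, of high affinity, differed by -0.07 (-0.33 to 0.20) and MUP3, of low affinity, by 0.26 (-0.26 to 0.78; unadjusted p = 0.0232 with the replicate block).

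The regulators had the highest median change of the 8 roles, 0.20, a rank among small roles that was not tested. Of their 6 changes, 5 were positive, beside 52.4% of all probe sets. None of the 6 had an unadjusted p below 0.05 without the block. MET4, the activator, had signals of 12.38, 12.15 and 12.38 in GAL-YRA1Δi cells and 12.04, 12.01 and 12.19 in GAL-YRA1 cells. GAL-YRA1Δi replicate 2 lay just below GAL-YRA1 replicate 3, so the groups overlapped. The change was 0.22 (SE 0.09, unadjusted p = 0.0513, adjusted p = 0.315; unadjusted p = 0.0208 with the replicate block). MET30, which encodes the part of the ubiquitin ligase that binds Met4 and restrains it, averaged 11.46 ± 0.21 in GAL-YRA1Δi cells and 11.22 ± 0.10 in GAL-YRA1 cells (SD, n = 3 each). Its change was 0.23 (SE 0.12, limma adjusted p = 0.409, and unadjusted p = 0.0200 with the replicate block). Without both replicate 2 arrays, a choice made after seeing the data, the change was 0.30 (limma adjusted p = 0.0429). MET31 and MET32 encode related zinc-finger factors that bring Met4 to DNA. MET31 differed by 0.24 (SE 0.13, adjusted p = 0.428; unadjusted p = 0.0259 with the replicate block). MET32 signals were 7.38, 8.14 and 7.35 in GAL-YRA1Δi cells and 7.31, 8.03 and 6.98 in GAL-YRA1 cells, a change of 0.18 (SE 0.33, adjusted p = 0.843). The DNA-binding partner gene CBF1 differed by 0.07 (SE 0.07), and MET28, which stabilises Met4 on DNA, by -0.10 (SE 0.09).

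**Figure D2:**
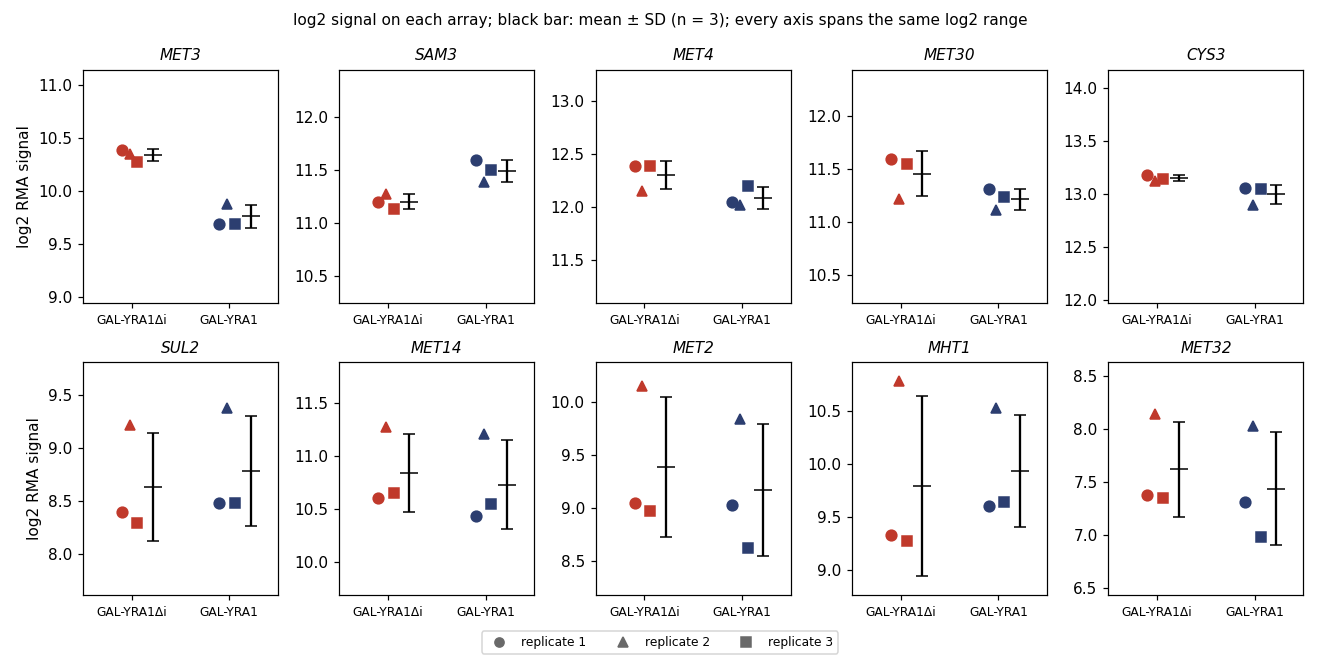
Log2 RMA signal on each array for MET3, SAM3, MET4, MET30 and CYS3 (top) and SUL2, MET14, MET2, MHT1 and MET32 (bottom), GAL-YRA1Δi left and GAL-YRA1 right in each panel, with black bars for mean ± SD (n = 3). The MET3 groups are apart by 0.58 on the log2 scale, while in the bottom row replicate 2 (triangles) is the highest array of each group.

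Several genes of the pathway varied more with the replicate number than with the construct. An F test of replicate number in a limma fit that also held the group gave 5 of the 35 genes an adjusted p below 0.05, as it did 2.58% of all probe sets (142 of 5498). These were SUL2, MET14, MET2, MHT1 and MET32, and each had an adjusted p of 0.0494. All 5 had their highest signal of either group in replicate 2. The range between the means of the replicate numbers was 1.20 for MET2 and 1.20 for MHT1 (2.30-fold each). It was 0.92 for MET32 (1.89-fold), 0.91 for SUL2 (1.88-fold) and 0.72 for MET14 (1.65-fold). Their unadjusted p in the limma F test ran from 0.0001 for SUL2 to 0.00127 for MHT1. For SUL2, replicate number held 96.7% of the sum of squares over the 6 arrays and the group 3.0%, on 2 degrees of freedom and 1. For MET3 the order was reversed, with 3.3% for the replicate number and 94.1% for the group. The count of 5 depended on the fit: it was 0 with all 10928 probe sets of the table in the fit (where 0 of all passed) and 10 with an intensity trend (where 15.0% of the 5498 passed).

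These 5 included, 14 of the 35 genes had an unadjusted p below 0.05 in the replicate-number test, against 28.9% of all probe sets. Both replicate 2 arrays lay above the 4 others for 11 genes (23.2% of all probe sets). These were SUL2, MET14, MET5, MET2, MET17, MET12, SAM2, SAH1, MHT1, MMP1 and MET32. They lay below the 4 others for 8 genes (22.1% of all), which were MET16, MET22, SAM1, SAM4, STR2, MUP1, MUP3 and MET30. Such an order of the arrays is no test. Of the genes named, MET5, MET12, SAH1, MET16, SAM1, SAM4 and MUP1 did not reach an unadjusted p below 0.05 in the replicate-number test. The median range between replicate numbers was 0.26 for the 35 genes and 0.19 for all probe sets. Replicate number held more of the sum of squares than the group in 27 of the 35 genes, and in 3497 of the 5498 probe sets. The median share held by the group was 15.3% for the 35 genes and 20.9% for all probe sets. What set the replicate 2 cultures or arrays apart was not tested, and the labels give no day or hybridisation batch.

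**Figure D3:**
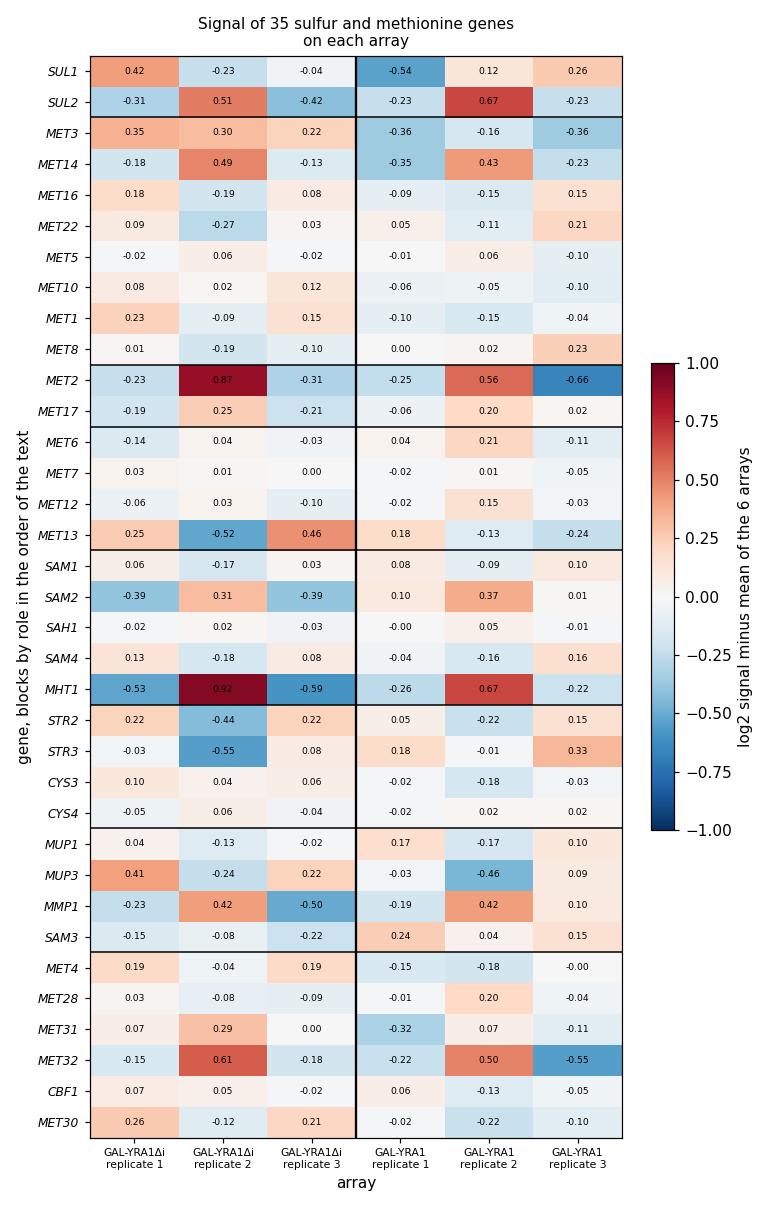
Log2 signal of each of the 35 genes on each array minus its mean over the 6 arrays, with GAL-YRA1Δi replicates left and GAL-YRA1 replicates right and black lines between roles. Red stands for above and blue for below the mean; MET3 changes colour between the groups, whereas SUL2, MET14, MET2, MHT1 and MET32 are red in replicate 2 of both.

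**Figure D4:**
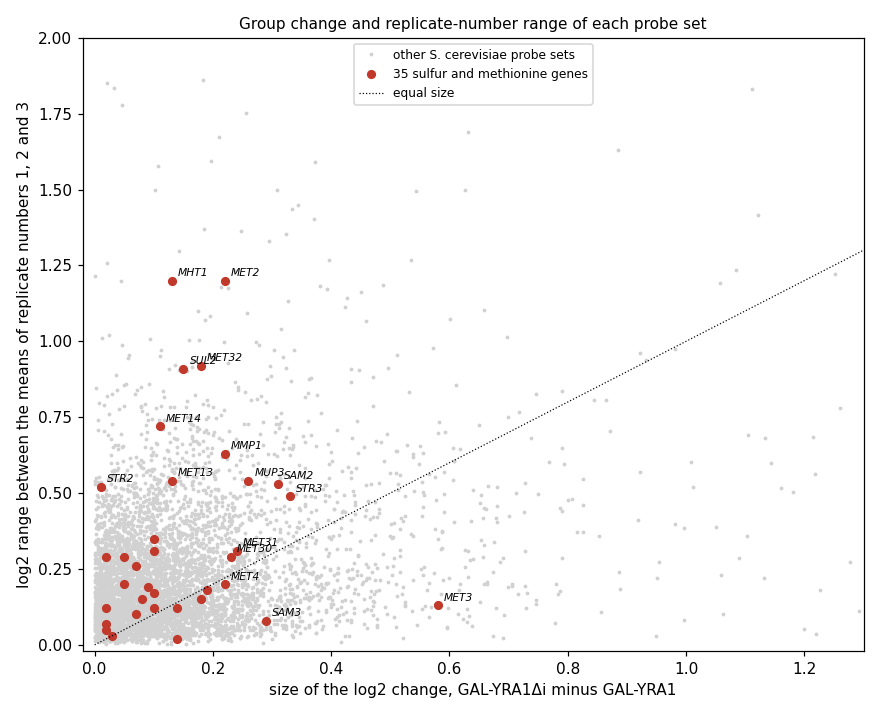
Size of the log2 change between GAL-YRA1Δi and GAL-YRA1 (horizontal) against the log2 range between the means of replicate numbers 1, 2 and 3 (vertical), with the 35 genes in red and other probe sets in grey; 30 probe sets lie outside the axes. On the dotted line both are equal. Of the 35 genes, MET3 and SAM3 lie farthest below it, though not alone, and MHT1 and MET2 lie highest.

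Genes of neighbouring pathways showed as little. Of 51 listed genes, 50 had a named probe set. Their median change was 0.02, with 28 positive and 22 negative, beside 52.4% positive among all probe sets. None passed the study's or the looser threshold. At an unadjusted p below 0.05, 3 of the 50 were higher and 0 lower in GAL-YRA1Δi cells, beside 9.79% and 6.31% of all probe sets. With the replicate block, 7 were higher and 3 lower at that p, beside 14.7% and 10.8% of all. The SCF ubiquitin ligase core, which works with Met30, held 2 of the 3 genes that were higher without the block. CDC34, its ubiquitin-conjugating enzyme, had signals of 12.79, 12.75 and 12.75 in GAL-YRA1Δi cells and 12.45, 12.50 and 12.49 in GAL-YRA1 cells. Its groups were well apart, with a change of 0.28 (SE 0.06, unadjusted p = 0.00221, limma adjusted p = 0.0983). Without both replicate 2 arrays, a choice made after seeing the data, its limma adjusted p was 0.0361. HRT1, the RING subunit, had signals of 11.32, 11.09 and 11.24 in GAL-YRA1Δi cells and 11.03, 10.79 and 11.04 in GAL-YRA1 cells. No GAL-YRA1Δi array reached down to a GAL-YRA1 array, and the change was 0.26 (SE 0.10, unadjusted p = 0.0401, adjusted p = 0.283). The cullin gene CDC53 differed by 0.25 (SE 0.11, adjusted p = 0.338) and the adaptor gene SKP1 by -0.02 (SE 0.13), both named after their values were seen. The ligase serves many substrates besides Met4.

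The third gene at that p was SPE3, the spermidine synthase, whose substrate derives from S-adenosylmethionine. Its signals were 13.18, 13.31 and 13.18 in GAL-YRA1Δi cells and 13.04, 13.03 and 13.10 in GAL-YRA1 cells. The groups did not overlap, and the change was 0.16 (SE 0.07, unadjusted p = 0.0498, adjusted p = 0.310). In the replicate-number test, 3 of the 50 genes had an adjusted p below 0.05, beside 2.58% of all probe sets, and they are named after their values were seen. OPT1, a transporter of glutathione and other oligopeptides, had signals of 8.35, 9.36 and 8.15 in GAL-YRA1Δi cells and 7.92, 8.98 and 7.82 in GAL-YRA1 cells. Like MET2 and MHT1 it was highest in replicate 2 of each group, with a range of 1.18 between replicate numbers. Its change between the groups was 0.38 (SE 0.43, adjusted p = 0.737; adjusted p = 0.0491 with the replicate block), positive in all 3 pairs. IRC7, a beta-lyase, and BAP3, a broad amino acid permease, were instead lowest in replicate 2, with ranges of 0.82 and 0.52.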

How the data were processed

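The authors deposited 1 table of log2 values which, by the study's methods and processing notes, came from RMA (background subtraction, quantile normalization over arrays, summary of each probe set); the notes also name limma. Versions are not given in the sources used here. Because RMA forces 1 distribution on all arrays, a shift common to most transcripts is lost. Array medians over the S. cerevisiae probe sets were 11.16 to 11.18. The number of arrays limits the precision. Groups came from the labels, which call the 3 arrays of a group biological replicates.

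Names came from the platform annotation, checked against RefSeq's gene table of the R64 assembly, which served for names and gene order only. Of 10928 probe sets, 5498 matched 1 S. cerevisiae gene. All 35 genes had a mean signal above the S. pombe level of 4.70, the lowest at 7.53. The 4 markers of mating type alpha also exceeded that level, at 6.35 to 10.48, although the strain is of type a. A signal above 4.70 is therefore no proof of expression, and the dimmer members lie within the range of those markers. The members, lists and tests were chosen with earlier results of these data known, among them the study's list of altered genes, which holds MET3 and CDC34. That list also holds genes changed by less than the 1.5-fold of the study's stated threshold, CDC34 and, narrowly, MET3 among them.

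Changes are GAL-YRA1Δi minus GAL-YRA1. They were fitted on group alone over the 5498 probe sets, dim ones included, with lmFit and eBayes of limma 3.58.1 (R 4.3.3), and p-values were adjusted by Benjamini-Hochberg over all of them. The fit was tested on simulated data with independent noise on each array, which leaves out the shared replicate 2 pattern of the real arrays. All 35 members are described. Values on each array are given for YRA1, for members with an unadjusted p below 0.05, for the member of each role with the lowest p, for the 5 members with the lowest p in the replicate-number test, and for neighbouring genes with an unadjusted p below 0.05.

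Replicate numbers were checked as a pairing by correlating the arrays' deviations from the group means. Arrays sharing a number gave 0.34, 0.69 and 0.30 for numbers 1, 2 and 3. Crossing numbers 1 and 3 gave higher correlations (0.66 and 0.58). Deviations cancel out within a group, so with replicate 2 apart in both groups, numbers 1 and 3 tend to correlate in any combination. The check therefore cannot show that 1 belongs with 1 or 3 with 3. The block uses the replicate numbers as given, although the labels do not state a pairing.

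Alternatives were a further quantile normalization, medians made equal over arrays, only probe sets above the S. pombe level, the whole table in the fit, an intensity trend, robust eBayes, array weights, the replicate block, leaving out each array and, added after seeing the data, leaving out both replicate 2 arrays.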

Additional observations from a re-analysis of the deposited data

How the results depend on the processing

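Of the 35 genes, 20 kept the sign of their change in all 15 alternatives and 15 did not. An adjusted p below 0.05 in at least 1 alternative was found for 8. Neither count was made over all probe sets, so neither has a background beside it. The count past the study's threshold, 0, became 2 at an unadjusted p below 0.05 (16.1% of all probe sets). The count past the looser threshold, 0, became 1 with array weights (217 of all 5498 probe sets). That count was also 1 without both replicate 2 arrays (231 of all), a setting added after seeing the data. It ran from 0 to 1 when single arrays were left out, with 1 without GAL-YRA1 replicate 2 (46 of all). The count at an unadjusted p below 0.05, 2, became 9 with array weights (35.9% of all probe sets), 9 with the replicate block (25.5%) and 12 without both replicate 2 arrays (32.8%). It ran from 2 to 9 when single arrays were left out, with 9 without GAL-YRA1Δi replicate 2 (22.6%). At an adjusted p below 0.05 the replicate block changed the call of MET3 and OPT1 (given above) and of no other gene described. The count of genes whose groups do not overlap, 4, became 25 without both replicate 2 arrays, when 64.2% of all probe sets do not, and ran from 6 to 18 when single arrays were left out (18 without GAL-YRA1Δi replicate 2, beside 48.7% of all probe sets, 11 without GAL-YRA1 replicate 2, beside 37.7%, and 7 without GAL-YRA1 replicate 3, beside 29.3%). With fewer arrays, groups overlap less often by construction. The median change ran from -0.0183 to 0.0290 when single arrays were left out, the lowest without GAL-YRA1 replicate 3. The count that differed between replicate numbers, 5, became 0 with all probe sets of the table and 10 with an intensity trend. MET32 turned to -0.0632 under a further quantile normalization. Leaving out single arrays turned the sign of the change of these 15 genes, which ran from -0.14 to 0.26 for SUL1, -0.44 to 0.15 for SUL2, -0.10 to 0.35 for MET14, -0.0254 to 0.16 for MET16, -0.18 to 0.00897 for MET22, -0.0229 to 0.0590 for MET5, -0.16 to 0.56 for MET2, -0.0727 to 0.42 for MET13, -0.12 to 0.0165 for SAM1, -0.0472 to 0.12 for SAM4, -0.63 to 0.17 for MHT1, -0.10 to 0.23 for STR2, -0.0516 to 0.00401 for CYS4, -0.17 to 0.00388 for MUP1 and -0.0754 to 0.48 for MET32. The cause of these turns was not tested. The other probe sets of a gene could not be tried, since each gene had 1. Groups of 3 arrays limit every value here to differences well above the spread between replicates.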
